A study of Homo sapiens with 38 samples.

Results

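The genes described here encode 9 proteins of the first steps of T-cell receptor signalling: PTPRC, CD2, LCK, FYN, ZAP70, LAT, LCP2, PLCG1 and VAV1. They were chosen by name, as 9 of the 20033 protein-coding genes of the RefSeq table of GRCh38.p14 that lay on the chromosomes of the lists. Every peak that overlapped a gene record, or the 50 kb on either side of it, was taken from the deposited lists for GATA3, BHLHE40 and the histone mark H3K27ac. That gave 79 of 29009 GATA3 peaks, 79 of 26205 BHLHE40 peaks and 212 of 113570 H3K27ac peaks, and no peak fell in the windows of 2 members. A peak was placed by distance alone, so a peak in a window may act on another gene or on none.

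The study used ChIP-seq, which sequences the DNA that an antibody against a protein or histone mark pulls down with its target, in the human leukaemic T-cell line Jurkat. Its 38 samples formed 19 groups of 2. The values below come from 3 groups, all of Jurkat cells carrying a control lentivirus (labelled Ctrl_LV) and stimulated with 50 ng/ml PMA plus 500 ng/ml ionomycin, a pair of drugs that enters the pathway downstream of the receptor. For the length of the stimulation the labels of the samples give 5 hours, while their treatment protocol gives 2 hours. The other 16 groups, with the edited and the BHLHE40 over-expressing cells, were not analysed here, so no condition was compared with another. Each list stands for a group of 2 samples and has no value per sample, so no spread between replicates and no test can be given. The depth is unknown. The signal value (the height of enrichment) and the q-value of each peak were set by the authors, and ranks are by signal value within the same list. As a check of the label, H3K27ac with a −log10 q of at least 5 lay within 1 kb of the start of 9 of 10 T-cell marker genes, all but TCF7. The same held for 0 of 7 B-cell, 0 of 6 myeloid and 0 of 4 erythroid marker genes. At any q-value the numbers were 9 T-cell, 1 B-cell, 1 myeloid and 0 erythroid. A strand was known for only 5 of the 10 T-cell markers, and the nearer end of the record stood for the start of the rest.

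In a T cell, the phosphatase CD45, encoded by PTPRC, keeps the Src-family kinase LCK ready to act. LCK, and to a lesser extent its relative FYN, phosphorylates the CD3 and zeta chains when the receptor binds its ligand, and ZAP70 docks on the phosphorylated chains and phosphorylates the adaptors LAT and SLP-76 (encoded by LCP2). These adaptors gather phospholipase C gamma (PLCG1), which makes the messengers that release calcium and activate protein kinase C, and VAV1, which links the receptor to the actin cytoskeleton. CD2 is an adhesion receptor that binds CD58 on the partner cell and feeds into the same kinases. Jurkat sublines lacking several of these proteins were used to order the pathway. GATA3 is a zinc finger factor of T cells and T-cell leukaemia that binds GATA words, BHLHE40 is a basic helix-loop-helix factor that binds the E-box CACGTG, and H3K27ac marks active promoters and enhancers.

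Both factors had peaks in the windows of all 9 genes, beside 76.1% of all protein-coding gene windows for GATA3 and 80% for BHLHE40. At least 1 GATA3 peak of every gene overlapped a BHLHE40 peak and an H3K27ac peak. The same held for 55.2% of all protein-coding genes, and for 73.1% of those with H3K27ac at the start. The strongest peaks lay inside or beside the genes rather than at their first starts. PLCG1, PTPRC and LCP2 held the GATA3 peaks of the highest signal value, and LCP2, PTPRC and PLCG1 the BHLHE40 peaks of the highest. The starts themselves split by gene when summits within 1 kb were counted. FYN, ZAP70, PLCG1 and VAV1 had summits of both factors there. LAT and LCP2 had one of BHLHE40 only, PTPRC one of GATA3 only, and LCK and CD2 had none. A BHLHE40 peak did cover the first starts of LCK and PTPRC, with its summit more than 1 kb away.

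Of these start regions and internal starts, 6 are shown as sequence: the 250 bases before the start listed by RefSeq (GRCh38.p14), 5′ to 3′ on the strand of the gene. They were chosen because in 4 of them a word that a factor binds lies inside a peak of that factor, and the other 2 (the CD2 start and the upstream start of LCK) hold such a word with no peak of that factor on it. Capitals mark the E-box CACGTG and the GATA word AGATAA with its variants, which were TGATAA (the variant at the downstream start of LCK), TGATAG (the variant at the starts of FYN and LCK) and AGATAG (found in none of the 6). Both strands were searched, so CTATCA and TTATCT are TGATAG and AGATAA read on the other strand.
ZAP70 start, chr2:97713326-97713575 (+): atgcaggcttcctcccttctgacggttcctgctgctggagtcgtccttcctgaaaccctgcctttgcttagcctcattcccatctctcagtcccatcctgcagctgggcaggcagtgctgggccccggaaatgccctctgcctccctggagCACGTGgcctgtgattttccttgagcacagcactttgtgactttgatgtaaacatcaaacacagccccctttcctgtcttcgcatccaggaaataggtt
CD2 start, chr1:116754180-116754429 (+): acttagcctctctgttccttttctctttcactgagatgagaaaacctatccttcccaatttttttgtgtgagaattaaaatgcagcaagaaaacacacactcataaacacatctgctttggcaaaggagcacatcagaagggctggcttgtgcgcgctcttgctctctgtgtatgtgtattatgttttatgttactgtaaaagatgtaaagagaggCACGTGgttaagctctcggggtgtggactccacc
LCK upstream start, chr1:32251015-32251264 (+): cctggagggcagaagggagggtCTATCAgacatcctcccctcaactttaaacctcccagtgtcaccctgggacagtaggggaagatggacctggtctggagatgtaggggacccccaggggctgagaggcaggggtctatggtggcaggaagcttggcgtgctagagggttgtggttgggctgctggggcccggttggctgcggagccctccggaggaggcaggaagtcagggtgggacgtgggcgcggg
LCK downstream start, chr1:32273871-32274120 (+): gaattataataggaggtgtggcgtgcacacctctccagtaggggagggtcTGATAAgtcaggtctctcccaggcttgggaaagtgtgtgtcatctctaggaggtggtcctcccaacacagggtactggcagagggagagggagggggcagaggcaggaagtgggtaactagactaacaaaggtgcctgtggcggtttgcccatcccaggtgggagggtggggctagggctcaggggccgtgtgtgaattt
FYN start, chr6:111873453-111873702 (−): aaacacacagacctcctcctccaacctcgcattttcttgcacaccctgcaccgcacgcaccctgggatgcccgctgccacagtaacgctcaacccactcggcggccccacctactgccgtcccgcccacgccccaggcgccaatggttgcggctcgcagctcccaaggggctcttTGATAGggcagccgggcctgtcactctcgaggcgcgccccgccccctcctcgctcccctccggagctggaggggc
FYN internal start, chr6:111759918-111760167 (−): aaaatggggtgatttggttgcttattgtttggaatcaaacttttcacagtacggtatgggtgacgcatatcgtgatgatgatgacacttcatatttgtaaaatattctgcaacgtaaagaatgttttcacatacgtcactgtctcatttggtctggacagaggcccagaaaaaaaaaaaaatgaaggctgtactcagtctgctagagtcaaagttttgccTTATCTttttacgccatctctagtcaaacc
Among all 35116 promoters of the table, 22.3% held at least 1 of the GATA words in these 250 bases and 6.34% held CACGTG, against 4 and 2 of the 16 listed promoters of the members. Each printed stretch holds 1 marked word. A match is a description of the letters and not a bound site. The single promoters listed for LCP2, VAV1, PLCG1 and PTPRC held neither kind of word, and each of these starts had a factor peak.

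The number of peaks differed widely between the windows, which ran from 106.0 kb at LAT to 313.1 kb at FYN. PTPRC had the most factor peaks of the 9, 20 for GATA3 and 17 for BHLHE40, and only 0.235% and 0.240% of protein-coding genes had as many in the same kind of window. These shares were not adjusted for the length of the window, which was 218.8 kb at PTPRC. VAV3, one of 48 other genes of the pathway counted further below, had more, 36 and 20. FYN, LCP2 and VAV1 had 11 GATA3 peaks each, and PLCG1 had 4, the fewest in windows of 50 kb. The low end of this order moved with the window: at 10 kb on each side LAT had 1, ZAP70 2, CD2 3 and PLCG1 4, and at 100 kb CD2 had 7, LCK and LAT 8, and PLCG1 10. Per 100 kb of window the order changed: PTPRC stayed first for GATA3 with 9.14 peaks, LCP2 followed with 7.26, and the long FYN window had 3.51. The median member had 6 GATA3, 9 BHLHE40 and 20 H3K27ac peaks, and the median protein-coding gene 2, 2 and 8. The median of the 48 other pathway genes was nearer to the members, with 5 GATA3 and 6 BHLHE40 peaks. The median member window was 142.8 kb and the median of all genes 124.1 kb. Per 100 kb the medians were 4.45 against 0.992 for GATA3, 4.87 against 1.62 for BHLHE40 and 13.7 against 5.90 for H3K27ac.

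**Figure D1:**
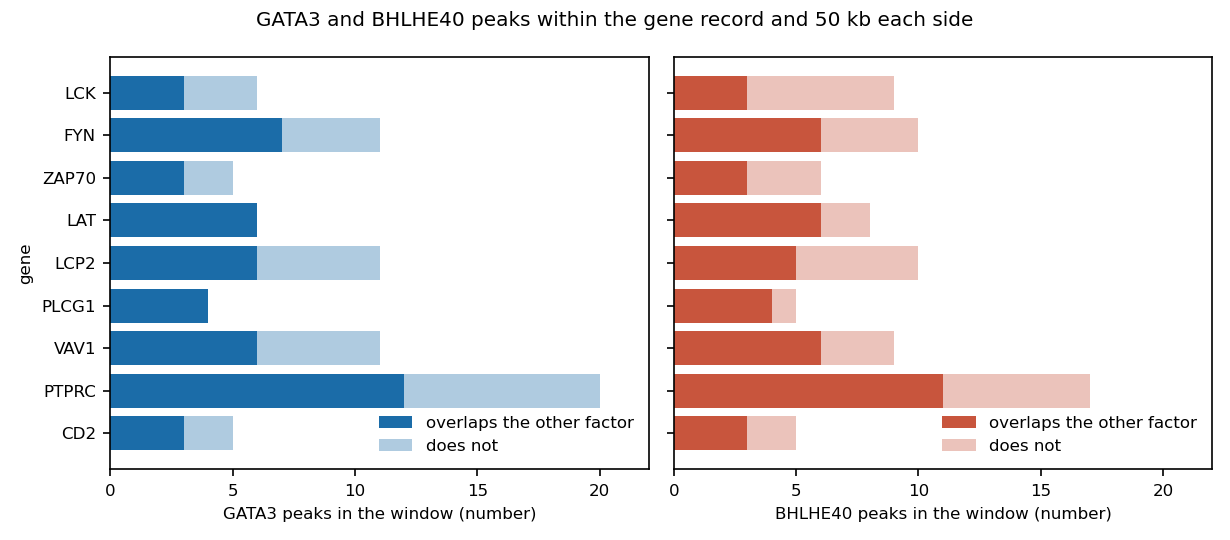
Number of GATA3 peaks (left) and BHLHE40 peaks (right) in the window of each gene, the record plus 50 kb on each side, with 1 bar a gene, dark for peaks that overlap the other factor and pale for those that do not. PTPRC has the longest bars (20 and 17), and the GATA3 bars of LAT and PLCG1 (6 and 4) are dark throughout.

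Read against the background, having any peak set the genes little apart. A GATA3 peak was found in 9 of 9 windows and in 76.1% of all protein-coding gene windows, a BHLHE40 peak in 9 of 9 and in 80%, and an H3K27ac peak of −log10 q at least 5 in 9 of 9 and in 79.5%. Overlapping peaks were less common in general. A GATA3 peak overlapping a BHLHE40 peak, here called a shared peak, lay in 9 of 9 windows and in 60.5% of all. A shared peak that also overlapped H3K27ac lay in 9 of 9 and in 55.2% of all, or 73.1% of the 8681 genes with H3K27ac at their start. The share was lower still for the strongest 10% of a list, which began at a signal value of 34.2 for GATA3 and 21.9 for BHLHE40. Such a GATA3 peak lay in the windows of 7 of the 9 genes, all but LCK and VAV1, and in 17.9% of all windows, or 22.1% of those of genes with H3K27ac at the start. For BHLHE40 it was 6 of the 9, all but FYN, ZAP70 and VAV1, beside 21.9% of all and 29.1% of those with H3K27ac at the start. VAV1 was the one member with neither.

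PTPRC (chr1:198638713-198757476, + strand) carried a run of peaks over the first part of the gene. Of its 20 GATA3 peaks, 14 had their summit in the record, the farthest 54.9 kb from the start, and none lay in the rest of the record. BHLHE40 followed the same stretch with 8 of its 9 peaks in the record. The strongest GATA3 peak, chr1:198675419-198677187, had its summit 37.7 kb from the start with a signal value of 113.9 (rank 173), and a BHLHE40 peak of 34.2 had its summit 4 bp away. At 30.6 kb the order of the ranks was the other way round, with a BHLHE40 signal value of 73.8 (rank 118) at chr1:198667773-198670341 and a GATA3 value of 67.2 (rank 775), 15 bp apart. The other shared peaks of high value lay at 43.2 kb (GATA3 63.6, BHLHE40 21.4), 18.1 kb (45.9 and 35.5) and 11.4 kb (43.9 and 31.6), each overlapping H3K27ac. So 5 of the 12 strong GATA3 peaks of all the windows belong to PTPRC.

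The start of PTPRC was the only one of the 9 with a GATA3 but no BHLHE40 summit within 1 kb. With H3K27ac also at the start, as at PTPRC, this pattern was held by 1.23% of the 15841 genes with a known strand. The GATA3 peak there had a signal value of 21.9 with its summit 416 bp inside the gene. BHLHE40 was not missing from the place: 1 peak of 5487 bp, chr1:198637421-198642907 with a signal value of 24.4, covered the start, but its summit lay 2996 bp inside the gene, 8 bp from a second GATA3 summit (20.2). It was 1 of 95 BHLHE40 peaks of at least 5000 bp. When a peak rather than its summit had to lie within 1 kb, PTPRC therefore had both factors. The H3K27ac peaks at this start had low signal values, 2.43 and 2.81, and high −log10 q values, 24.7 and 37.5. Outside the record, a GATA3 peak of 33.7 lay 39.5 kb before the start, at the start of the uncharacterised gene LOC124904478, with BHLHE40 at 9.93.

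CD2 (chr1:116754430-116769229, + strand) had no factor peak near its start. The nearest GATA3 and BHLHE40 summits were 9.18 and 9.21 kb inside the gene, 29 bp apart, with signal values of 18.3 and 6.06. H3K27ac at the start was weak, with signal values of 2.77 and 2.49 and −log10 q values of 9.11 and 7.06. The CACGTG word shown above, 34 bases before the start, was 9244.5 bp from the nearest BHLHE40 summit. The strongest BHLHE40 peak, chr1:116768805-116771017 with a signal value of 48.6 (rank 408), crossed the 3′ end of the record, and its summit lay 634 bp beyond it. A GATA3 peak of 12.8 overlapped it with its summit 139 bp away, and so did the strongest H3K27ac peak of the window (5.94, −log10 q of 130.8). The flank beyond the 3′ end of CD2 is known as the site of its locus control region, a stretch that gives transgenes T-cell expression. The strongest GATA3 peak of CD2 was elsewhere, 15.1 kb before the start, with a signal value of 35.4 (rank 2725) and H3K27ac but no BHLHE40.

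LCK (chr1:32251265-32286165, + strand) is transcribed from a distal and a proximal promoter, and RefSeq lists a start for each. At the upstream start no GATA3 peak was found, and the nearest summit was 5379 bp inside the gene. A BHLHE40 peak of 15.3 covered this start, but its summit was 1120 bp before it. The TGATAG word 228 bases before the upstream start thus lay under a BHLHE40 peak and no GATA3 peak. The downstream start had both factors. Its BHLHE40 peak, chr1:32273102-32275904, was the strongest of the window at 23.2 (rank 2289) with the summit 152 bp before the start, and its GATA3 peak, chr1:32273176-32274615, was weak at 8.34. The TGATAA word in that promoter was 45.5 bp from the BHLHE40 summit and 270.5 bp from the GATA3 summit. H3K27ac at the downstream start had a signal value of 8.25 and a −log10 q of 152.9. The H3K27ac peak that covered the upstream start had 6.59 and 114.8. The LCK window holds 9 protein-coding records in all, the most among the members, and its strongest GATA3 peak (25.7) lay in HDAC1, 56.3 kb from the start of LCK.

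FYN (chr6:111660332-111873452, − strand) is the longest of the genes, and its strongest GATA3 peak marked an internal start. The peak, chr6:111758917-111760298 with a signal value of 46.2 (rank 1692), had its summit 13 bp before the start listed at position 111759917, 113.5 kb from the first start. H3K27ac overlapped it only weakly, as no H3K27ac peak on it reached a −log10 q of 5. BHLHE40 did not overlap it, with the nearest BHLHE40 summit 8704 bp away. The AGATAA word in that promoter was 14.5 bp from the GATA3 summit. At the first start the balance was the reverse: BHLHE40 had a signal value of 15.2 with its summit 6 bp before the start, and GATA3 had 7.28 with its summit 4.5 bp from the TGATAG word shown above. The strongest BHLHE40 peak of FYN (19.9) lay 67.7 kb inside the gene without GATA3, and the shared peak of highest GATA3 value lay at 49.2 kb with 29.1. No H3K27ac peak of FYN exceeded a signal value of 5.46, although the window held 43 of them, and 10 reached a −log10 q of 5.

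ZAP70 (chr2:97713576-97756364, + strand) had its strongest GATA3 peak just before the gene. This peak, chr2:97710752-97711756, had a signal value of 70.8 (rank 672) with its summit 2420 bp before the start. A BHLHE40 peak of 9.75 had its summit 24 bp away, and no H3K27ac peak overlapped the pair. The start itself was ordered the other way: the GATA3 signal value was 5.02, near the bottom of the list (rank 28247 of 29009), and the BHLHE40 value was 13.2 with H3K27ac at 6.82. The E-box CACGTG, 99 bases before the start, lay inside both peaks and 47.5 bp from the BHLHE40 summit. The next pair of the window by signal value (GATA3 30.8, BHLHE40 15.6) lay 50.5 kb before the start, at the starts of ACTR1B and C2orf92. Inside the ZAP70 record there was 1 summit of each factor.

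**Figure D2:**
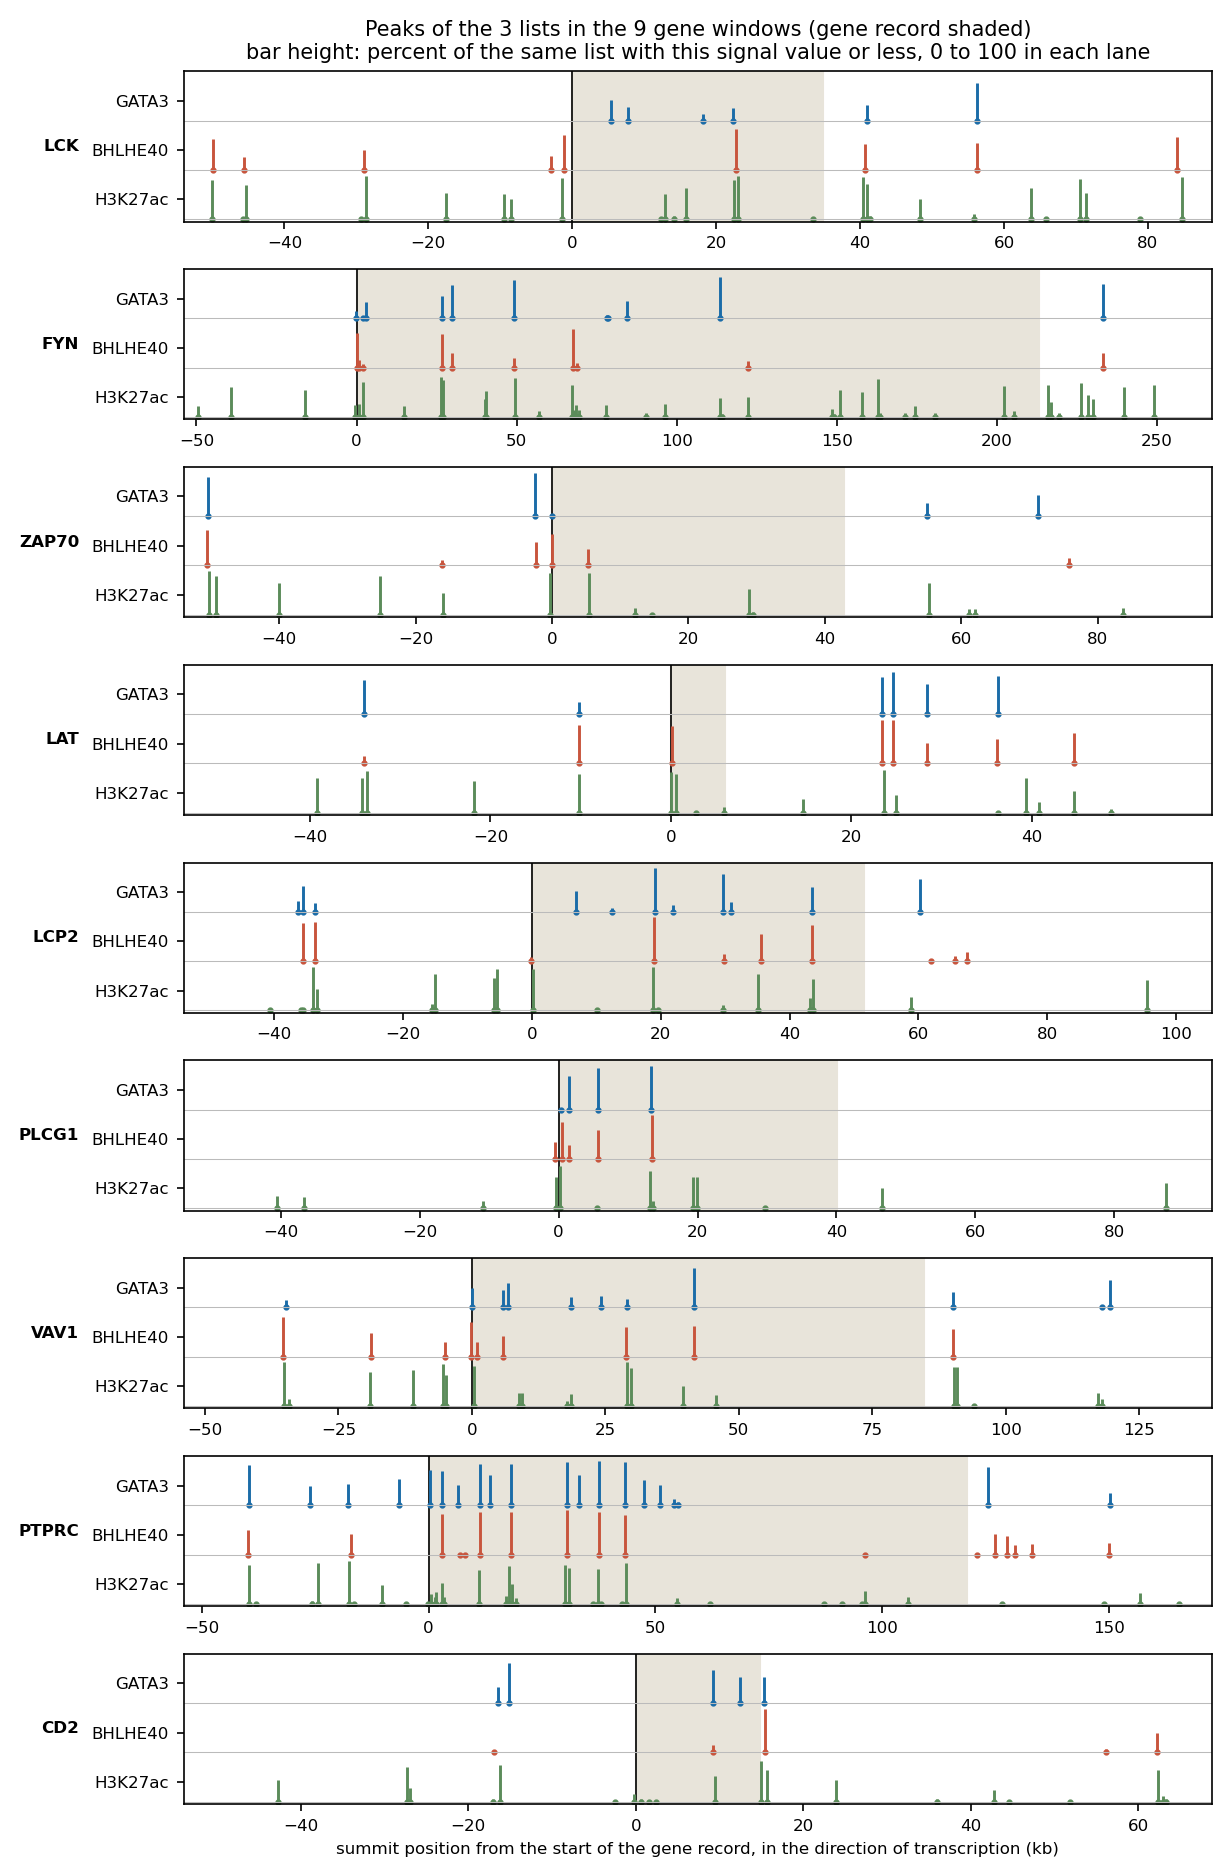
Position of every GATA3, BHLHE40 and H3K27ac summit in the window of each gene, in kb from the gene start in the direction of transcription, with the record shaded. A point marks each summit, and the height of the bar on it is the percent of the same list with this signal value or less. GATA3 and BHLHE40 bars crowd the first 55 kb of PTPRC, and tall bars of both factors stand together at 13.4 kb in PLCG1 and at 19.1 kb in LCP2.

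LAT (chr16:28984803-28990784, + strand) is the shortest of the genes, and none of its 6 GATA3 summits lay in the record. All 6 overlapped BHLHE40, with a median distance of 3.5 bp between the summits. The strongest, chr16:29009056-29010005, lay 24.7 kb from the start, beyond the 3′ end, with a signal value of 44.3 for GATA3 (rank 1811) and 36.2 for BHLHE40, 5 bp apart. A neighbouring pair at 23.4 kb had 23.9 for GATA3 and 36.9 for BHLHE40 (rank 813), 3 bp apart. Both pairs lay in no gene record and overlapped H3K27ac, which had there its highest signal value of the window (8.87). A BHLHE40 peak of 17.9 without GATA3 stood at the start, 76 bp inside the gene. Other pairs of the window lay at the starts of NFATC2IP (GATA3 19.4, BHLHE40 5.97) and SPNS1 (8.29 and 19.4).

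LCP2 (chr5:170246233-170297777, − strand) held the BHLHE40 peak of the highest signal value in any of the windows. It was chr5:170278490-170280547, 19.1 kb inside the gene, with 105.5 (rank 35 of 26205). The GATA3 peak on it, chr5:170278514-170279752, had 74.2 (rank 603), and the summits were 2 bp apart. An H3K27ac peak of 9.06 (−log10 q of 191.3) overlapped both. The start had only a weak BHLHE40 peak, 5.15 (rank 23943), beside H3K27ac at 6.77, and the nearest GATA3 summit was 6909 bp away. A second GATA3 peak inside the gene, at 29.6 kb, had 28.1 and was shared, and the third, beyond the 3′ end at 60.3 kb, had 17.9 and was not.

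PLCG1 (chr20:41137543-41177626, + strand) had 4 GATA3 peaks, one of them the strongest in any of the windows. The peak chr20:41150539-41151352, 13.4 kb inside the gene, had a GATA3 signal value of 122.9 (rank 141 of 29009). BHLHE40 had 59.8 (rank 216) at chr20:41150540-41151263, with a summit 7 bp away. The stronger H3K27ac peak on this pair had 4.29, above the median of the H3K27ac list, 3.31. The other GATA3 peaks, all shared and in the gene, had 41.8 at 5.64 kb, 19.2 at 1.54 kb and 4.34 at the start. At the start BHLHE40 had 17.0 and H3K27ac 7.98. PLCG1-AS1 and LOC124904903 start within 1 kb of these summits, so the start peaks cannot be told apart from those of the neighbours.

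VAV1 (chr19:6772708-6857361, + strand) had many peaks of moderate height. Its strongest GATA3 peak, chr19:6814034-6814597 at 41.6 kb, had a signal value of 31.2 with BHLHE40 at 12.6 and no H3K27ac. The strongest H3K27ac peak of all the windows was also in this gene, at 29.1 kb (chr19:6801104-6802259, 16.5, rank 379 of 113570). On that peak GATA3 had 7.36, under the median of its list, and BHLHE40 had 12.0, above the median of its own. At the start GATA3 had 10.5 and BHLHE40 14.9, with summits 60 and 113 bp before it. The strongest BHLHE40 peak of the window (20.6) lay at the start of GPR108, 35.3 kb away.

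The starts were set side by side. A GATA3 summit lay within 1 kb of the start of 5 of the 9 genes, against 20.5% of the 15841 protein-coding genes with a known strand and 36.2% of those with H3K27ac at the start. A BHLHE40 summit lay there in 6 of the 9, against 44.9% and 79.4%. When a BHLHE40 peak rather than its summit had to lie within 1 kb, it was 8 of the 9. The share of other genes by that looser measure was not computed, so the 8 cannot be set against 44.9% and 79.4%. H3K27ac lay at the start of 9 of 9, against 54.8%, counted by any peak within 1 kb and not by its summit. The pattern of all 3 lists at the start, that of FYN, ZAP70, PLCG1 and VAV1, was found in 18.6% of the genes with a known strand. BHLHE40 with H3K27ac, as at LAT and LCP2, was found in 24.9%, and H3K27ac alone, as at LCK and CD2, in 10.1%. LCK falls in the last class only because the factors were counted by summit: its BHLHE40 summit (1120 bp away) and its H3K27ac summit (1378 bp away) both lay outside the 1 kb, while both peaks covered the start. At a score of at least 830 the GATA3 summits at the starts of ZAP70 and VAV1 were lost, which left 3 of the 9 genes with one, FYN, PLCG1 and PTPRC. Where both factors had a summit at the start, the GATA3 peak ranked low: the values were 7.28 at FYN, 5.02 at ZAP70, 4.34 at PLCG1 and 10.5 at VAV1, all under the median of the GATA3 list, 11.2. The strongest BHLHE40 values at the same starts were 15.2, 13.2, 17.0 and 14.9, all above the median of the BHLHE40 list, 9.35. Signal values at the starts of other genes were not computed, so this order is not shown to be particular to these genes.

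**Figure D3:**
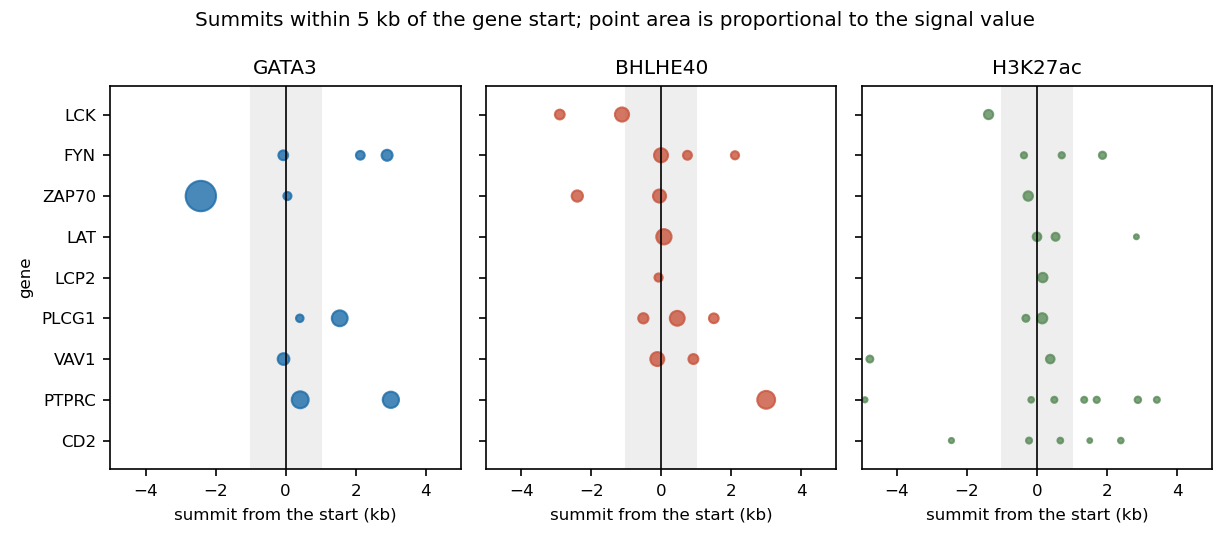
Summits within 5 kb of each gene start, in kb from the start in the direction of transcription, for GATA3, BHLHE40 and H3K27ac, with the 1 kb on each side shaded and the area of a point proportional to its signal value, on the same scale in each panel. The GATA3 points in the shaded band are small at FYN, ZAP70, PLCG1 and VAV1, the large GATA3 point of ZAP70 (70.8) lies before the band, and CD2 has no factor point.

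Sharing went with signal value. Of the 79 GATA3 peaks 50 (63.3%) overlapped BHLHE40, beside 48.7% of the whole list, and 40 (50.6%) overlapped both BHLHE40 and H3K27ac, beside 37.7%. In the other direction 47 of the 79 BHLHE40 peaks (59.5%) overlapped GATA3, beside 53% of that list. The median GATA3 signal value was 18.6 for shared and 10.1 for unshared peaks, beside 13.9 and 10.1 over the whole list. The median BHLHE40 value was 12.6 and 7.17, beside 11.4 and 7.96 over its list. Of the 12 GATA3 peaks among the strongest 10%, 10 were shared, as were 90.2% of such peaks in the whole list. The exceptions were the internal start of FYN and the peak before CD2. With H3K27ac peaks of any q-value counted, they overlapped 40 of the 50 shared GATA3 peaks (80%) and 8 of the 29 unshared ones (27.6%). The whole list gave 77.4% and 22.3%, so this split was near that of the list. At a −log10 q of at least 5, 36 of the 50 shared peaks still overlapped H3K27ac. Of the unshared ones, only the peak 26.2 kb before PTPRC and the one 15.1 kb before CD2 did. The shares of the whole list at that limit were not computed. In 7 of the 9 genes the strongest GATA3 peak was shared, and in 8 of the 9 the strongest BHLHE40 peak, the exception being that of FYN. The same share over all protein-coding genes was not computed, so these counts are not shown to set the members apart.

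Summits of shared peaks lay close together, with a median distance of 46 bp (range 1 to 2580 bp), beside 35 bp over the whole list. In 26 of the 50 (52%) they were at most 50 bp apart, beside 61.5% of the list. The distance varied by gene: the medians were 3.5 bp at LAT, 36 bp at PLCG1, 64.5 bp at PTPRC and 316 bp at LCK. Across the 50 shared GATA3 peaks the signal values of the factors ranked alike only in part, with Spearman's rho of 0.321, and 0.270 over the whole list. This is a description across peaks of the same lists, which share their libraries and are not replicates. In 7 pairs both peaks were among the strongest 10% of their list, of which 4 lay in PTPRC.

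**Figure D4:**
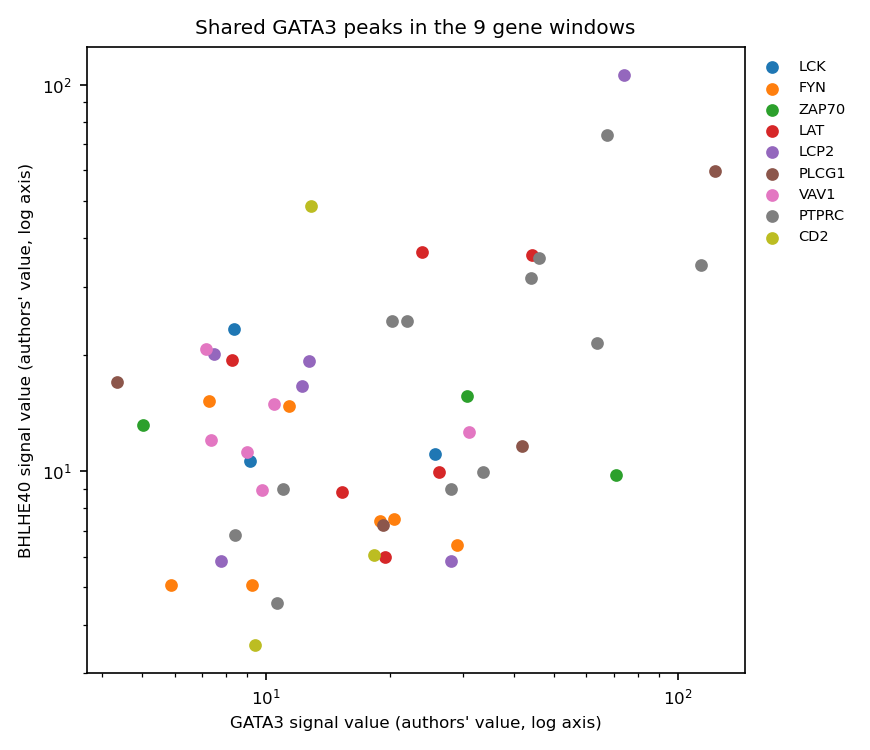
GATA3 signal value against BHLHE40 signal value for the 50 shared GATA3 peaks, both on log axes, with 1 point for each peak, coloured by gene. The points of LCP2, PTPRC and PLCG1 with values above 50 on both axes stand at the upper right, and CD2 has a BHLHE40 value of 48.6 beside a GATA3 value of 12.8.

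A list of 48 other genes of the pathway was counted the same way. A shared peak lay in the windows of 44 of 48 (91.7%), beside 60.5% of all protein-coding genes. A strong GATA3 peak lay in 28 (58.3%), beside 17.9% of all, or 22.1% of genes with H3K27ac at the start. For a strong BHLHE40 peak it was 22 (45.8%), beside 21.9% and 29.1%. Having such peaks was thus not particular to the 9 members. Of the 37 with a known strand, 14 (37.8%) had all 3 lists at the start, the pattern most common among the members. Among all genes with a known strand it was 18.6%. BHLHE40 with H3K27ac was found in 12 (32.4%, beside 24.9% of all) and H3K27ac alone in 6 (16.2%, beside 10.1%). The pattern of PTPRC was found in 0, beside 1.23% of all. The highest GATA3 values lay in the windows of CD28, the costimulatory receptor, with 137.9 (rank 81), and UBASH3B, a phosphatase that restrains the kinases, with 135.1 (rank 94). The adaptors SKAP1 (100.8), NCK1 (99.2) and SH2D2A (98.4) followed. The summits for UBASH3B, SKAP1 and NCK1 lay in the gene record, and those for CD28 and SH2D2A lay outside it. The highest BHLHE40 value lay in the window of the membrane adaptor LAX1 (51.4, with its summit 108 bp before the start). The windows of GRAP (46.7), SIT1 (45.4), CD5 (45.3) and TRAT1 (44.7) followed. None of these 5 peaks had its summit in the record of the named gene, so each may belong to another gene, although that of LAX1 covered the LAX1 start. All 5 values were below the strongest of LCP2, PTPRC and PLCG1. SYK, the relative of ZAP70 used mainly in B cells, was the one gene of the list with no peak of either factor in its window, and no H3K27ac peak lay within 1 kb of its start.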

How the data were processed

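ChIP-seq peak lists for GATA3, BHLHE40 and H3K27ac, each of a group of 2 samples, were used as deposited. Samples were grouped by their titles. MACS2, bcl2fastq 2.20 and the build hg38 are named in the submitters' processing notes. The aligner, the filters and the use of input are not given in the sources used here. Per the deposited list names and scores, the factor lists were kept at an irreproducible discovery rate of 0.05 (scores of 540 to 1000), and the H3K27ac list was pooled. The score of the deposited H3K27ac list was 10 times the −log10 p-value, as a whole number. An unfiltered pooled list holds many weak peaks, so H3K27ac was also counted at a −log10 q-value of at least 5, the authors' value per peak. What the authors' signal value is relative to is not stated.

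Peaks overlapping a RefSeq GRCh38.p14 record plus 50 kb by at least 1 bp were counted. A start was the record end given by the strand of the RefSeq promoter table, and background shares at starts used the 15841 of 20033 protein-coding genes with a strand there, in place of the planned nearer end of the record for the rest. For marker genes without a strand the nearer end was used. Named were all 9 members, up to 3 of their strongest peaks per list, peaks at starts, the strongest shared peak, and of the pathway list the 5 genes with the highest signal value per factor and any without a factor peak. Other peaks were named after their values were seen. The members and lists were chosen with earlier results of these data known. The alternatives were other windows, start distances and overlaps, a score of at least 830, the strongest 5% and, added after seeing the data, any listed start, peaks in place of summits and the members without PTPRC. Functions were tested on simulated data. Computations ran in Python 3.11.15 (numpy 2.4.6, scipy 1.17.1, pandas 2.3.3) and figures in matplotlib 3.10.9. Coordinates are 1-based.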

Additional observations from a re-analysis of the deposited data

How the results depend on the processing

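Of 57 alternatives of 12 counts and medians over the 9 genes, 51 stayed within 1.5 times the value given and 6 did not. Windows of 10 kb held 49 BHLHE40 peaks (79 at 50 kb) and 131 H3K27ac peaks (212 at 50 kb), and a −log10 q of at least 5 left 92 H3K27ac peaks. At a score of at least 830, 3 genes in place of 5 had a GATA3 summit at the start (ZAP70 and VAV1 were lost), and the median summit distance of shared peaks was 29 bp in place of 46 bp. With the strongest 5% in place of 10%, 4 genes in place of 7 had a strong GATA3 peak. Of 72 alternatives of the factor counts of single genes, 12 differed by more than 1.5 times, among them LAT at 10 kb (1 GATA3 peak in place of 6 and 2 BHLHE40 peaks in place of 8) and PLCG1 at 100 kb (10 GATA3 peaks in place of 4). Without PTPRC there were 59 GATA3, 62 BHLHE40 and 175 H3K27ac peaks, 38 shared GATA3 peaks and a median distance of 37.5 bp. Counting any listed start gave 6 genes with GATA3 and 7 with BHLHE40, and counting peaks in place of summits gave 5 and 8. No paired analysis was possible because the lists give 1 value per peak for the pair of samples in a group. Leaving out a replicate was not run for the same reason.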

Other observations

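The signal value and the q-value of H3K27ac parted at PTPRC. Of the 17 H3K27ac peaks with a −log10 q of at least 20 in the PTPRC window, 6 had a signal value under 3. None of the 29 such peaks in the other 8 windows did, and in the whole list it was 86 of 10537 (0.816%), where the median signal value was 7.69. The peaks at the start of PTPRC were among them. The threshold of 20 and the limit of 3 were chosen after the values were seen, and the source of the difference was not tested.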
